A study of Homo sapiens with 12 samples.

Results

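ATF4 and 9 genes of its amino acid response were examined in HCT116 cells, a human colorectal carcinoma line, treated with dolastatin 15. The genes were ATF4, ASNS, CHAC1, TRIB3, DDIT3, DDIT4, SESN2, STC2, PSAT1 and PHGDH. They were picked by name, with no measured value in the rule, as the rows whose Ensembl identifier carries one of these symbols in GENCODE 29. The choice of names was nevertheless made with earlier results of these data known, so counts of called members are descriptions. All 10 were found among the 58174 genes of the deposited table, and all 10 reached 1 FPKM (fragments scaled to transcript length and sequencing depth) in at least 2 libraries, the level required for testing.

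ATF4 is a basic leucine zipper transcription factor whose mRNA is translated more efficiently when the initiation factor eIF2 is phosphorylated, which the kinase GCN2 does on uncharged tRNA and the kinase PERK does on unfolded protein in the endoplasmic reticulum. It dimerises with other leucine zipper proteins at composite elements upstream of genes for amino acid synthesis, amino acid uptake and tRNA charging, and upstream of genes for stress regulators such as DDIT3 (CHOP), TRIB3 and CHAC1. Much of the control of ATF4 acts on translation and protein stability, which mRNA levels do not show. Dolastatin 15, a peptide of marine origin, acts on tubulin and disrupts microtubules.

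The series compared dolastatin 15 at 2 concentrations with DMSO solvent at 2 times, by RNA sequencing of poly(A) RNA. There were 6 groups of 2 libraries: 100 nM for 24 h, 20 nM for 24 h, solvent for 24 h, 100 nM for 16 h, 20 nM for 16 h and solvent for 16 h. Per the labels' protocols, all cells, controls included, were treated in medium with 5% serum at 0.25% DMSO, and treatments were made in duplicate. Nothing in the labels says whether duplicates were separate cultures, and the p-values therefore reflect only library-to-library spread, which may be technical. Only 1 cell line was used. Numbered as in the deposited table, libraries 9 and 10 were 100 nM for 24 h, 7 and 8 were 20 nM for 24 h, 11 and 12 solvent for 24 h, 3 and 4 were 100 nM for 16 h, 1 and 2 were 20 nM for 16 h, and 5 and 6 solvent for 16 h.

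Promoter sequence is shown for 3 members, the 2 whose window held a match to an ATF4 element and PSAT1, which was called lower in all 4 comparisons with solvent. The sequences are the 250 bases upstream of the RefSeq start (GRCh38.p14), 5′ to 3′ on the strand of the gene, and capitals mark a match to the core of the C/EBP-ATF response element, TGATGNAAN on either strand.
ASNS, chr7:97872409-97872658, minus strand: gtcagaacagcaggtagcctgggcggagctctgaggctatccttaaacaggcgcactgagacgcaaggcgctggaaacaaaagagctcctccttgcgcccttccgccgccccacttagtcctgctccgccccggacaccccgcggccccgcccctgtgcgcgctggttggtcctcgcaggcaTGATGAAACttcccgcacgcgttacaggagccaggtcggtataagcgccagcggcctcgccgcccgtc
CHAC1, chr15:40953221-40953470, plus strand: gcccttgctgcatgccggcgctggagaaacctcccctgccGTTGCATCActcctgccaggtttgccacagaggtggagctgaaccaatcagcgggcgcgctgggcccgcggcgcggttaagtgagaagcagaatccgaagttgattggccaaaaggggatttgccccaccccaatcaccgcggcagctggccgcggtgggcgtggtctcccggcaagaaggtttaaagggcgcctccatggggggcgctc
PSAT1, chr9:78296875-78297124, plus strand: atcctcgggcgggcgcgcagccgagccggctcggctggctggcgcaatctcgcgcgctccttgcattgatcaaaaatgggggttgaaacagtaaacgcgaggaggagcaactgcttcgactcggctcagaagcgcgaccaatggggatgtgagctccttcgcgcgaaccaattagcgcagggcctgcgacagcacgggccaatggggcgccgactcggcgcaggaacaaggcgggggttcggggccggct
In ASNS the match TGATGAAAC lay at bases -68 to -60 from the start, counted with the start base as 0. In CHAC1 the match lay on the opposite strand, at bases -210 to -202, and read GTTGCATCA on the strand shown. The PSAT1 window held no match. Over the 300 bases of each promoter window (250 before and 50 after the start) a match was present in 2 of the 15 windows of members and 2 of the 10 members. It was present in 1268 of 35116 windows of all genes (3.61%) and in 1215 of 27305 genes (4.45%). The endoplasmic reticulum stress element (CCAAT, 9 unspecified bases, CCACG, either strand) was found in 0 member windows and in 27 of all windows (0.0769%). A match describes letters in a window and does not show binding.

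The deposited values were FPKM, so the number of reads behind each value is unknown. FPKM summed to 911720 to 1049886 per library, and 20368 to 21519 genes were above 0. Libraries of the same group correlated at 0.991 to 0.994 and libraries of different groups at 0.978 to 0.992 (Pearson's r across tested genes on log2(FPKM + 1), where genes are not independent replicates). Of 10 colorectal epithelial markers 7 were at or above 1 FPKM in every library (EPCAM, KRT8, KRT18, KRT19, CDH1, CDX2 and ELF3), while CEACAM5, VIL1 and LGALS4 were not. Markers of other cell types summed to 3.2 to 6.34 FPKM over 10 genes, against 1260 to 1460 FPKM for the epithelial markers. Mitochondrial genes took 18.8% and 20.7% of FPKM in the 100 nM 24 h libraries, 23.8% and 25.8% in the 20 nM 24 h libraries and 17.9% and 18.6% in the solvent 24 h libraries. At 16 h they took 21.6% to 24.5% in all 3 groups. Beyond the rescalings given beside the results, their part in the results was not tested. Rescaling each library to a common FPKM sum moved the median log2 change of all genes by -0.16 for 20 nM against solvent at 24 h, so changes in that comparison are read against this shift.

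Between the drug groups and solvent, members moved in both directions. At 100 nM and 24 h, 5 of 10 members rose and 1 fell (limma on log2(FPKM + 1), Benjamini-Hochberg adjusted p under 0.05 over 13458 tested genes, here called), where 33.8% of all tested genes were called, 15.4% higher and 18.4% lower. At 20 nM and 24 h, 2 rose and 1 fell, where 28.8% of all tested genes were called, 14.7% higher and 14.1% lower. At 100 nM and 16 h, 3 rose and 4 fell, where 23.8% were called, 9.16% higher and 14.7% lower. At 20 nM and 16 h, 2 rose and 3 fell, where 17.7% were called, 6.78% higher and 11% lower. The median log2 change of the 10 members was 0.18, 0.06, -0.07 and 0.04 in these 4 comparisons in that order, beside -0.02, 0.00, -0.03 and -0.02 for all tested genes. Leaving out 1 library changed some of these counts: 1 member was called with 20 nM at 24 h without library 12, 3 were called with 100 nM at 16 h without library 3, and 3 with 20 nM at 16 h without library 2. DDIT3 was the member that rose in all 4 comparisons and PSAT1 the member that fell in all 4. The comparisons at 1 time share their solvent libraries, so they are not independent of each other.

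The split of calls over all genes depends on scaling. At 100 nM and 24 h, 2075 genes were called higher and 2475 lower, against 1146 and 3725 after rescaling to a common sum and 1436 and 3328 when the common sum was taken over nuclear genes. At 20 nM and 24 h the split was 1984 higher and 1896 lower, against 573 and 4662 with the common sum and 1329 and 2686 with the nuclear sum. At 100 nM and 16 h it was 1233 and 1972, against 911 and 2378 with the common sum and 1601 and 1689 with median-of-ratios scaling. At 20 nM and 16 h it was 912 and 1476, against 1226 and 1226 with median-of-ratios scaling. For the called members, the direction held under every scaling tried, but not every call did. At 20 nM and 24 h with the common sum, neither rise kept its call (adjusted p = 0.0783 for CHAC1 and 0.0608 for DDIT3, limma). ATF4, TRIB3, DDIT4 and PHGDH were then called lower beside PSAT1.

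**Figure D1:**
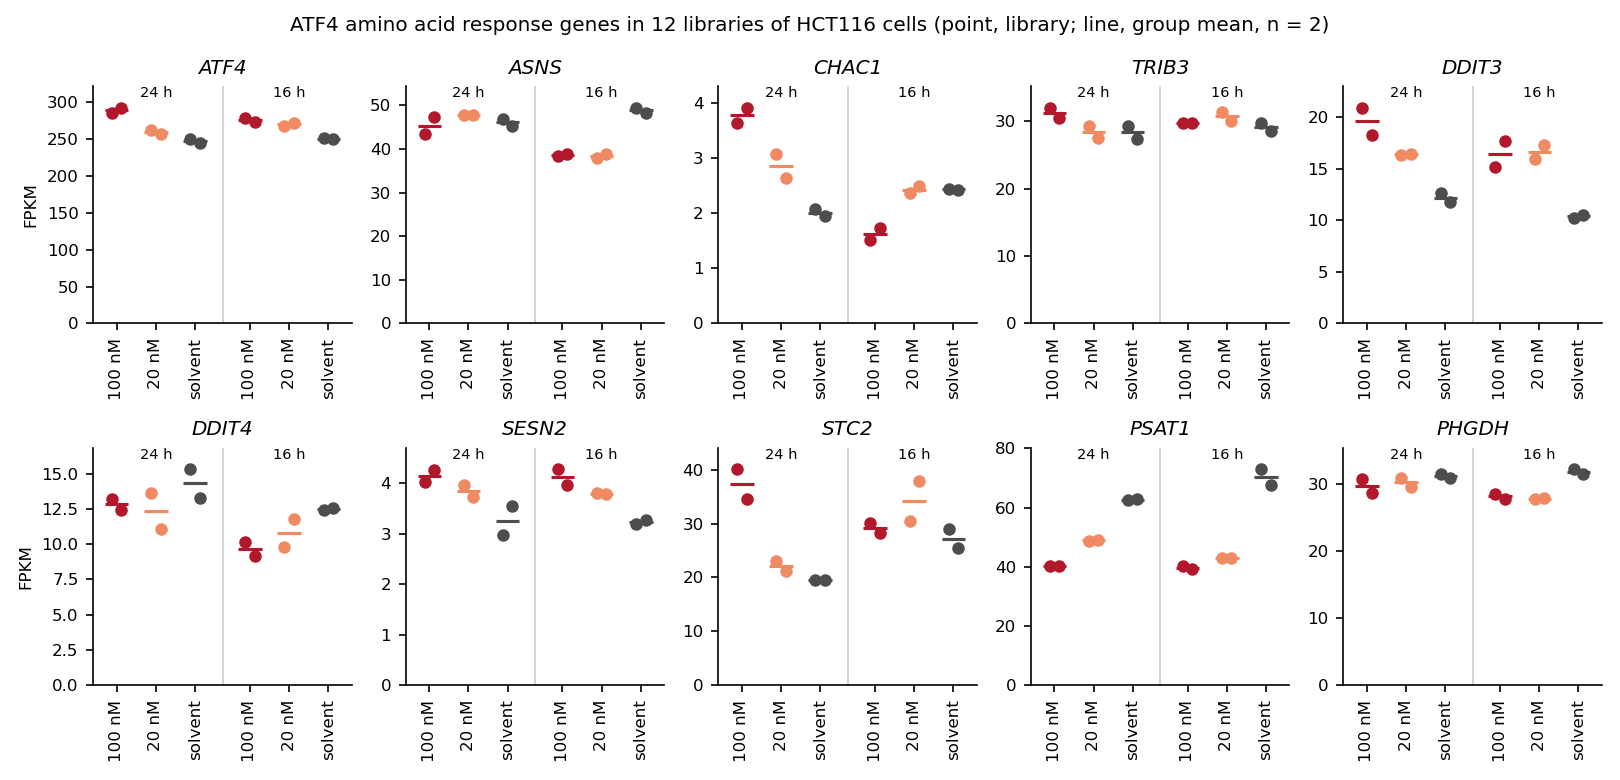
FPKM of the 10 members (y axis, from 0) in each of 12 libraries, by group along the x axis (100 nM, 20 nM and solvent, at 24 h on the left and 16 h on the right of each panel); points are libraries and lines are group means (n = 2). PSAT1 was at 39.3 to 49.1 FPKM in the 8 drug libraries, below all 4 solvent libraries at 62.5 to 73.0 FPKM, and DDIT3 was at 15.2 to 20.9 FPKM in the drug libraries, above all 4 solvent libraries at 10.2 to 12.6 FPKM.

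ATF4 itself (ENSG00000128272, chr22:39519695-39522685, GRCh38, plus strand) was the most abundant member per length, at 245 to 293 FPKM over the 12 libraries. At 24 h it was at 286 and 293 FPKM in the 100 nM libraries, 263 and 257 FPKM in the 20 nM libraries and 250 and 245 FPKM in the solvent libraries. At 16 h it was at 279 and 273 FPKM with 100 nM, 268 and 273 FPKM with 20 nM and 252 and 250 FPKM with solvent. Every drug library lay above both solvent libraries of its time, and at 16 h the 100 nM and 20 nM libraries nearly met. In bulk RNA, a change in the share of cells that hold a transcript and a change per cell cannot be told apart. Group means at 24 h were 290 ± 4.82 FPKM with 100 nM and 248 ± 3.32 FPKM with solvent (SD, n = 2 each), a log2 change of 0.23 (SE 0.03, adjusted p = 0.001, limma). At 16 h the log2 change was 0.14 with 100 nM (adjusted p = 0.0149) and 0.11 with 20 nM (adjusted p = 0.0493). In ATF4 the 16 h calls were fragile: adjusted p was 0.064 to 0.0819 for 100 nM without library 3, 5 or 6, and up to 0.222 for 20 nM, the highest value being without library 2. At 20 nM and 24 h the ATF4 log2 change was 0.07 (adjusted p = 0.141), and after rescaling to a common sum it was -0.12 (adjusted p = 0.0327).

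DDIT3, also called CHOP, encodes a leucine zipper factor induced by ATF4 that acts in stress-linked cell death (ENSG00000175197, chr12:57516588-57521737, minus strand). Its 24 h values were 20.9 and 18.2 FPKM in the 100 nM libraries, 16.4 and 16.4 FPKM in the 20 nM libraries and 12.6 and 11.7 FPKM in the solvent libraries. The 16 h values were 15.2 and 17.6 FPKM with 100 nM, 16.0 and 17.3 FPKM with 20 nM and 10.2 and 10.5 FPKM with solvent. No drug library overlapped a solvent library at either time. The ratio of mean FPKM to solvent was 1.61 with 100 nM at 24 h, 1.35 with 20 nM at 24 h, 1.58 with 100 nM at 16 h and 1.6 with 20 nM at 16 h. The log2 changes were 0.64, 0.40, 0.61 and 0.63 in the same order (SE 0.08 each), with adjusted p of 0.000708, 0.00818, 0.00124 and 0.00154 (limma). The 20 nM call at 24 h had an adjusted p of 0.0548 without library 12 and 0.0608 after rescaling to a common sum. DDIT3 shares 982 bases with MARS and 1028 bases with MBD6, both on the opposite strand. On its own strand it shares 2769 bases with AC022506.1, annotated as protein-coding, which is absent from the deposited genes. Counting by strand would not separate AC022506.1 from DDIT3. DDIT3 also shares 97 bases with the microRNA gene MIR616, listed at 0 in all libraries. These overlaps are of whole gene spans, introns included. MARS was at 242 and 175 FPKM with 100 nM at 24 h, 122 and 197 FPKM with solvent at 24 h, 135 and 159 FPKM with 100 nM at 16 h and 193 and 284 FPKM with solvent at 16 h, and it was called in none of the drug comparisons. With 20 nM the MARS log2 change was 0.57 at 24 h (adjusted p = 0.231, limma) and -0.62 at 16 h (adjusted p = 0.238). MBD6 was at 15.4 to 17.9 FPKM over all libraries. The library kit was directional but the sources used here do not give the strand setting of the counting, and the share of these neighbours in the DDIT3 values was not tested.

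CHAC1 encodes a glutathione-degrading gamma-glutamylcyclotransferase that ATF4 induces (ENSG00000128965, chr15:40952962-40956519, plus strand, promoter shown above). It was low, at 3.64 and 3.92 FPKM with 100 nM, 3.07 and 2.65 FPKM with 20 nM and 2.07 and 1.95 FPKM with solvent at 24 h. Values at 16 h were 1.51 and 1.74 FPKM with 100 nM, 2.37 and 2.49 FPKM with 20 nM and 2.45 and 2.42 FPKM with solvent. At 24 h both doses lay above solvent, and at 16 h both 100 nM libraries lay below it while the 20 nM libraries overlapped it. CHAC1 thus rose 1.88-fold with 100 nM at 24 h (log2 change 0.67, SE 0.09, adjusted p = 0.000864, limma), and at 16 h it fell to 1.62 ± 0.163 FPKM with 100 nM, against 2.44 ± 0.0212 FPKM with solvent (SD, n = 2 each; log2 change -0.39, adjusted p = 0.0157). At 20 nM the log2 change was 0.36 at 24 h (adjusted p = 0.0187) and -0.0023 at 16 h (adjusted p = 0.993). The log2(FPKM + 1) scale understates the change of a gene this low. The CHAC1 fall at 16 h had an adjusted p of 0.0633 to 0.0865 without library 3, 5 or 6. The 20 nM rise at 24 h had 0.0601 to 0.0941 without library 7, 11 or 12, 0.0783 after rescaling to a common sum and 0.0566 when fitted on the 24 h libraries alone.

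TRIB3 encodes a pseudokinase induced by ATF4 and DDIT3 that feeds back on both (ENSG00000101255, chr20:362835-397559, plus strand). It was at 32.0 and 30.4 FPKM with 100 nM, 29.3 and 27.6 FPKM with 20 nM and 29.3 and 27.3 FPKM with solvent at 24 h. At 16 h it was at 29.8 and 29.7 FPKM with 100 nM, 31.3 and 30.0 FPKM with 20 nM and 29.7 and 28.5 FPKM with solvent. All 12 libraries of TRIB3 lay between 27.3 and 32.0 FPKM, and no comparison called it. The log2 changes were 0.14 (adjusted p = 0.0794), 0.01 (0.956), 0.03 (0.71) and 0.07 (0.377) for 100 nM and 20 nM at 24 h and 100 nM and 20 nM at 16 h (SE 0.05 each, adjusted p from limma). With median-of-ratios scaling the 100 nM value at 24 h passed (adjusted p = 0.0317), and after rescaling to a common sum the 20 nM value at 24 h was -0.18 (adjusted p = 0.0392).

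SESN2 and DDIT4 encode stress-induced restraints of mTORC1, SESN2 as a leucine-binding inhibitor of GATOR2 and DDIT4 (REDD1) through the TSC complex. SESN2 (ENSG00000130766, chr1:28259527-28282491, plus strand) was at 4.02 and 4.27 FPKM with 100 nM, 3.97 and 3.73 FPKM with 20 nM and 2.98 and 3.54 FPKM with solvent at 24 h. The 16 h values were 4.28 and 3.97 FPKM with 100 nM, 3.8 and 3.78 FPKM with 20 nM and 3.2 and 3.27 FPKM with solvent. All drug libraries lay above the solvent libraries of their time. At 100 nM the SESN2 log2 change was 0.28 at 24 h (SE 0.08, adjusted p = 0.033, limma) and 0.27 at 16 h (adjusted p = 0.043), and at 20 nM it was 0.19 at 24 h (adjusted p = 0.122) and 0.18 at 16 h (adjusted p = 0.181). Both SESN2 calls were fragile. The 24 h call had an adjusted p of 0.0503 to 0.194 without library 1, 2, 9, 10 or 11, and of 0.067 to 0.0943 with no filter on low values, after either rescaling or in a fit of the 24 h libraries alone. The 16 h call was lost without library 1, 2, 3, 4, 5, 6, 9 or 10, with log2 changes of 0.23 to 0.32 over the libraries left out. It was also lost with no filter on low values (adjusted p = 0.0967, limma), after rescaling to a common sum (0.06) and in a fit of the 16 h libraries alone (0.0521).

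DDIT4 (ENSG00000168209, chr10:72273920-72276036, plus strand) was at 13.2 and 12.5 FPKM with 100 nM, 13.7 and 11.1 FPKM with 20 nM and 15.3 and 13.3 FPKM with solvent at 24 h. Values at 16 h were 10.2 and 9.19 FPKM with 100 nM, 9.78 and 11.8 FPKM with 20 nM and 12.4 and 12.6 FPKM with solvent. The drug means lay below solvent in all 4 comparisons, with overlap for 20 nM at 24 h, and none was called. The largest difference was a DDIT4 log2 change of -0.34 with 100 nM at 16 h (SE 0.11, adjusted p = 0.0619, limma), which had an adjusted p of 0.0377 without library 7 and 0.0375 without library 8. The others were -0.14, -0.20 and -0.20. At 20 nM and 24 h, rescaling to a common sum gave -0.37 (adjusted p = 0.0364). DDIT4-AS1, on the opposite strand of DDIT4 over 1066 bases, was listed at 0 in all libraries.

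STC2 encodes the secreted glycoprotein stanniocalcin 2, an ATF4 target in endoplasmic reticulum stress (ENSG00000113739, chr5:173314713-173329503, minus strand). At 24 h it was at 40.2 and 34.6 FPKM with 100 nM, 23.0 and 21.2 FPKM with 20 nM and 19.4 and 19.5 FPKM with solvent. At 16 h it was at 30.2 and 28.2 FPKM with 100 nM, 30.5 and 38 FPKM with 20 nM and 28.9 and 25.5 FPKM with solvent. At 24 h the 100 nM libraries stood clear of the other 4, and at 16 h they overlapped solvent. STC2 averaged 37.4 ± 3.92 FPKM with 100 nM and 19.5 ± 0.0212 FPKM with solvent at 24 h (SD, n = 2 each), 1.92-fold higher, with a log2 change of 0.90 (SE 0.11, adjusted p = 0.000446, limma). This was the largest increase among the members in the 4 drug comparisons. The other STC2 log2 changes were 0.17 with 20 nM at 24 h (adjusted p = 0.266), 0.10 with 100 nM at 16 h (adjusted p = 0.559) and 0.31 with 20 nM at 16 h (adjusted p = 0.0808). The last of these had an adjusted p of 0.0379 without library 1.

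The 3 members that make amino acids lay lower with the drug at 16 h. ASNS encodes asparagine synthetase, the classical target of amino acid limitation (ENSG00000070669, chr7:97852118-97872542, minus strand, promoter shown above). Its 24 h values were 43.4 and 47.3 FPKM with 100 nM, 47.7 and 47.9 FPKM with 20 nM and 46.9 and 45.3 FPKM with solvent. The 16 h values were 38.5 and 38.7 FPKM with 100 nM, 37.8 and 38.8 FPKM with 20 nM and 49.5 and 48.2 FPKM with solvent. The 16 h drug libraries were the lowest of all 12, and at 24 h the 100 nM libraries overlapped solvent. ASNS fell at 16 h with 100 nM (log2 change -0.33, SE 0.05, adjusted p = 0.00138, limma) and with 20 nM (-0.34, adjusted p = 0.00167), to 0.79 and 0.785 of the solvent mean. At 24 h the log2 change was -0.03 with 100 nM (adjusted p = 0.716) and 0.05 with 20 nM (adjusted p = 0.465), and both values turn sign with scaling. The whole span of ASNS lies within that of AC079781.5, a processed transcript annotated on the same strand, which is absent from the deposited genes.

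PSAT1 encodes phosphoserine aminotransferase, which follows PHGDH in serine synthesis (ENSG00000135069, chr9:78297143-78330093, plus strand). At 24 h it was at 40.2 and 40.4 FPKM with 100 nM, 48.8 and 49.1 FPKM with 20 nM and 62.5 and 62.9 FPKM with solvent. Values at 16 h were 40.1 and 39.3 FPKM with 100 nM, 43.1 and 43.0 FPKM with 20 nM and 73.0 and 67.7 FPKM with solvent. The 100 nM libraries were lowest at each time, the 20 nM libraries came next and the solvent libraries were highest, with no overlap. PSAT1 fell to 0.643 of the solvent mean with 100 nM and 0.781 with 20 nM at 24 h, and to 0.564 with 100 nM and 0.612 with 20 nM at 16 h. The log2 changes were -0.63, -0.35, -0.81 and -0.70 (SE 0.04 each), with adjusted p of 2e-05, 0.000601, 5.44e-06 and 2.57e-05 (limma). All 4 stayed called under each of the 21 alternative settings.

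PHGDH encodes phosphoglycerate dehydrogenase, the first enzyme of serine synthesis (ENSG00000092621, chr1:119648411-119744226, plus strand). Its 24 h values were 30.8 and 28.7 FPKM with 100 nM, 30.9 and 29.6 FPKM with 20 nM and 31.5 and 31.0 FPKM with solvent. At 16 h it was at 28.6 and 27.8 FPKM with 100 nM, 27.8 and 27.9 FPKM with 20 nM and 32.3 and 31.5 FPKM with solvent. Both doses lay just below solvent, by less at 24 h. At 16 h PHGDH fell with 100 nM (log2 change -0.17, SE 0.05, adjusted p = 0.0287, limma) and with 20 nM (-0.19, adjusted p = 0.026). Both calls were lost without any 1 of the libraries compared, at an adjusted p of 0.0687 to 0.134 for 100 nM (library 3, 4, 5 or 6) and 0.0735 to 0.13 for 20 nM (library 1, 2, 5 or 6). At 24 h the log2 change was -0.07 with 100 nM (adjusted p = 0.294) and -0.04 with 20 nM (adjusted p = 0.52), and these values were called after rescaling to a common sum (adjusted p = 0.0397 and 0.00933).

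**Figure D2:**
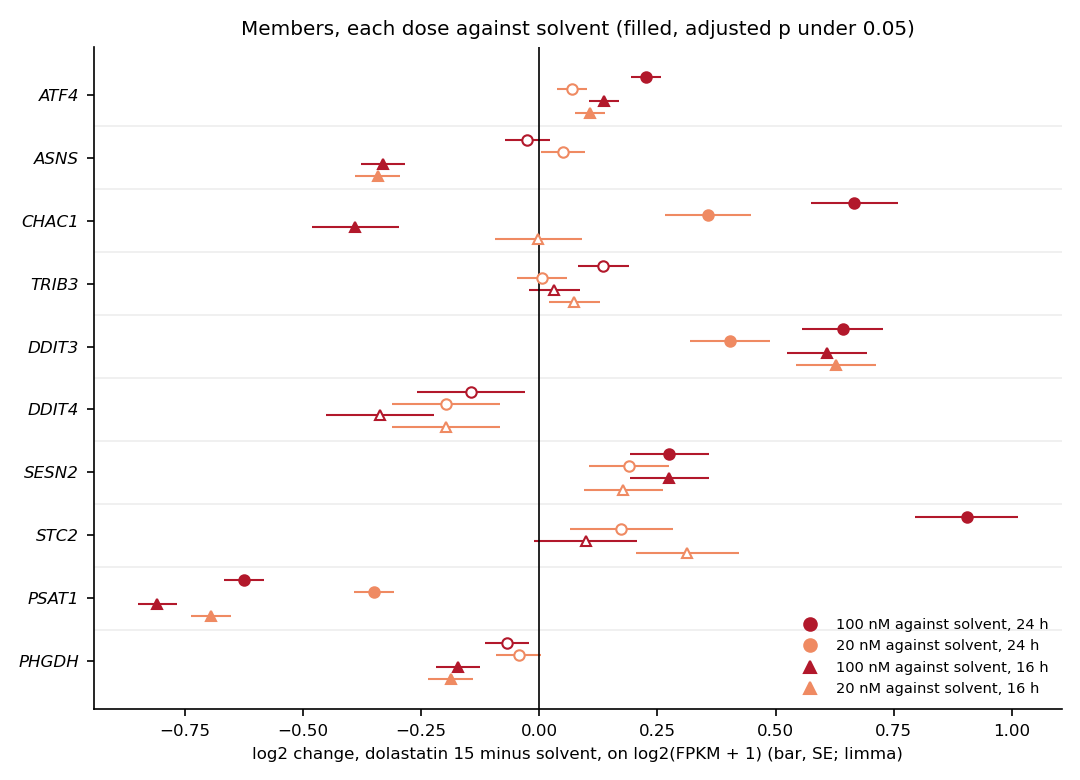
Log2 change of each member (y axis) for dolastatin 15 minus solvent on the log2(FPKM + 1) scale (x axis), with bars of 1 SE from limma; circles are 24 h, triangles 16 h, dark red 100 nM and orange 20 nM, and filled symbols have an adjusted p under 0.05. STC2 at 100 nM and 24 h lies farthest right at 0.90 and PSAT1 at 100 nM and 16 h farthest left at -0.81, and CHAC1 at 100 nM lies on opposite sides of 0 at the 2 times.

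The 2 doses were set against each other at each time. At 24 h, 100 nM exceeded 20 nM for STC2 (1.69-fold, log2 difference 0.73, SE 0.11, adjusted p = 0.0115, limma) and ATF4 (1.12-fold, 0.16, adjusted p = 0.0306), and lay below it for PSAT1 (ratio 0.823, -0.28, adjusted p = 0.013), so 3 of 10 members were called where 4.88% of all tested genes were. Each of the 3 calls was lost when only the 24 h libraries were fitted (adjusted p 0.0641 for STC2, 0.144 for ATF4 and 0.0843 for PSAT1). Without library 8 or 9 the adjusted p was 0.0727 and 0.0945 for STC2 and 0.0607 and 0.0945 for PSAT1, and without library 10 it was 0.0776 for PSAT1. For ATF4 it was 0.0502 to 0.161 without library 1, 2, 5, 6, 8, 9, 10, 11 or 12. CHAC1 at 100 nM and 24 h lay above both 20 nM libraries without passing the test (log2 difference 0.31, adjusted p = 0.0888), as did DDIT3 (0.24, adjusted p = 0.136). At 16 h, 0 of 10 members differed between doses by limma, where 0.32% of all tested genes were called. The unadjusted p was under 0.05 for 2 members, CHAC1 (0.00223) and PSAT1 (0.0248). The share of all tested genes at that looser level is not given here, so this count has no background. For CHAC1 at 16 h the log2 difference was -0.39 (adjusted p = 0.14).

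Whether the drug effect changed with time was tested as the difference between the 24 h and the 16 h effect, each against its own solvent. At 100 nM, 3 of 10 members differed, all with a higher log2 change at 24 h, where 10.2% of all tested genes were called. These were CHAC1 (difference 1.06, SE 0.13, adjusted p = 0.00226, limma), STC2 (0.81, SE 0.15, adjusted p = 0.0144) and ASNS (0.31, SE 0.07, adjusted p = 0.0228). At 20 nM, 2 of 10 differed, again with a higher log2 change at 24 h, where 11.5% of all tested genes were called. These were ASNS (0.39, SE 0.07, adjusted p = 0.00826) and PSAT1 (0.35, SE 0.06, adjusted p = 0.00865). CHAC1 at 100 nM stayed called in every setting that tested it. The filter at 5 FPKM left CHAC1 out. The ASNS difference at 100 nM had an adjusted p of 0.0504 to 0.0814 without library 3, 4, 5, 6, 10, 11 or 12 and 0.0597 with a common nuclear sum, and the STC2 difference 0.0511 to 0.054 without library 4, 5 or 9. After rescaling to a common sum the 20 nM differences had an adjusted p of 0.0635 for ASNS and 0.105 for PSAT1.

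The solvent libraries enter these differences. STC2 was at 19.4 and 19.5 FPKM in solvent at 24 h and 28.9 and 25.5 FPKM in solvent at 16 h, a log2 difference of -0.46 (SE 0.11, adjusted p = 0.0448, limma), so 1 of 10 members was called between the solvent times where 5.62% of all tested genes were. That STC2 call had an adjusted p of 0.0532 to 0.211 without library 3, 4, 5, 6, 9, 10, 11 or 12, after rescaling to a common sum, with no filter on low values or with a constant prior. PSAT1 was 0.891 of its 16 h level in solvent at 24 h (adjusted p = 0.0566), and CHAC1 was 0.825 of it (adjusted p = 0.233). In 100 nM libraries alone, CHAC1 was at 3.64 and 3.92 FPKM at 24 h and 1.51 and 1.74 FPKM at 16 h. Among the other pathway genes whose drug effect differed between the times, the solvent level was called lower at 24 h than at 16 h for PPP1R15A (log2 difference -0.43, adjusted p = 0.0135), SLC3A2 (-0.40, adjusted p = 0.0138) and FOSL1 (-0.33, adjusted p = 0.0126). In the 100 nM libraries, SLC3A2 was at 179 and 178 FPKM at 24 h and 181 and 177 FPKM at 16 h, FOSL1 at 326 and 325 FPKM at 24 h and 324 and 342 FPKM at 16 h, and PPP1R15A at 32.7 and 32.8 FPKM at 24 h and 30.4 and 28.5 FPKM at 16 h. The 100 nM levels of SLC3A2 and FOSL1 thus overlapped between the times, while their solvent levels did not.

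**Figure D3:**
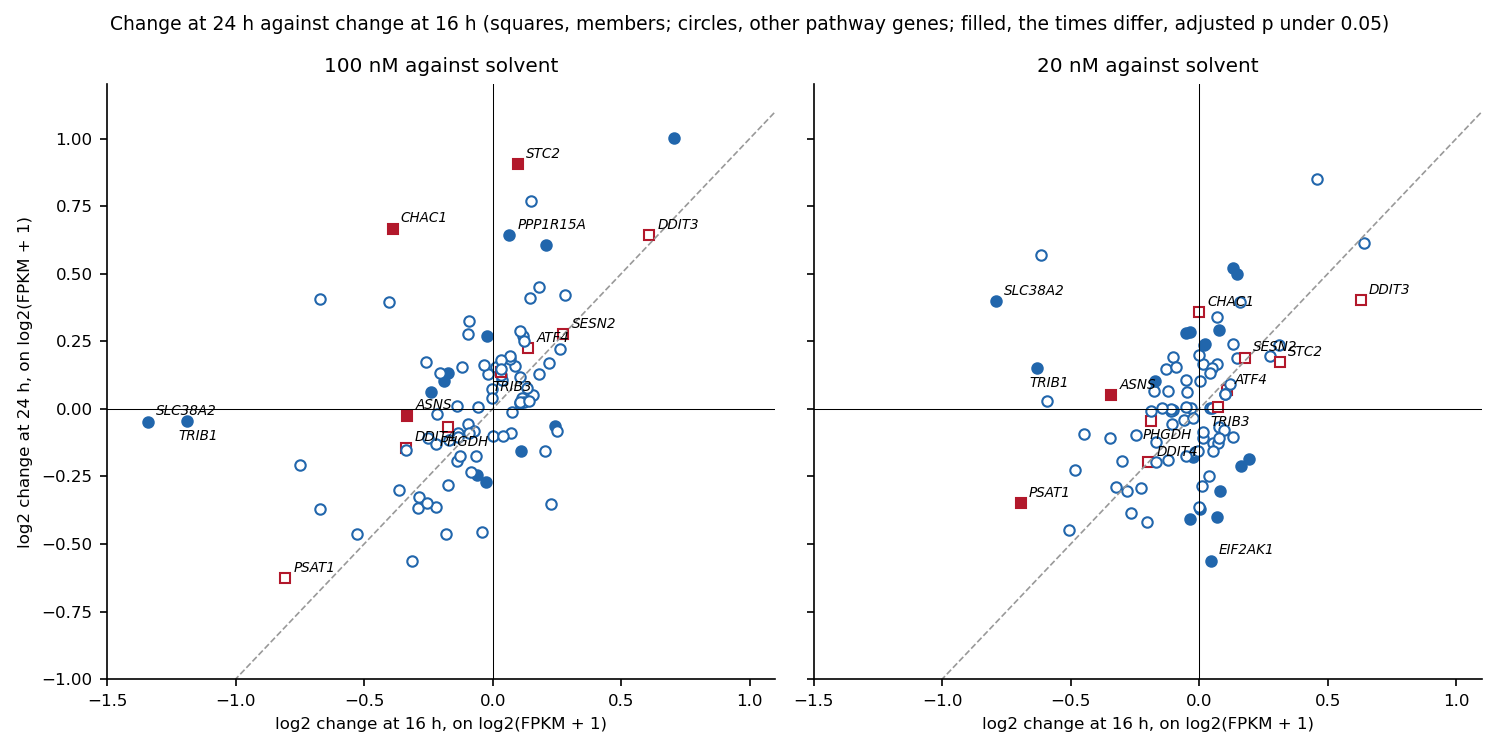
Log2 change against solvent at 24 h (y axis) and at 16 h (x axis) on the log2(FPKM + 1) scale for 100 nM (left) and 20 nM (right); red squares are members, blue circles are other pathway genes, filled symbols have a difference between the times with adjusted p under 0.05 and the dashed line marks equal change. CHAC1 lies at 0.67 at 24 h and -0.39 at 16 h with 100 nM, and SLC38A2 at 0.40 at 24 h and -0.79 at 16 h with 20 nM.

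Genes that act at the eIF2 step were examined as a list of 15 kinases, phosphatase subunits and eIF2 factors. At 24 h, 7 rose and 1 fell with 100 nM (33.8% of all tested genes were called), and 3 rose and 2 fell with 20 nM (28.8%). At 16 h, 1 rose and 2 fell with 100 nM (23.8%) and 1 fell with 20 nM (17.7%). The list medians were 0.12, 0.10, -0.02 and 0.04 in that order. The value for 20 nM at 24 h was smaller in size than the -0.16 by which a common sum moved the median of all genes. With 100 nM at 24 h the number called was 3 without library 9 and 10 without library 7. PPP1R15A (GADD34), the stress-induced subunit that directs dephosphorylation of eIF2, was at 32.7 and 32.8 FPKM with 100 nM, 29.2 and 25.7 FPKM with 20 nM and 20.5 and 20.8 FPKM with solvent at 24 h, with no overlap. Its log2 change at 24 h was 0.64 with 100 nM (adjusted p = 0.000166, limma) and 0.39 with 20 nM (adjusted p = 0.0024), and at 16 h 0.06 and 0.16 without passing the test. EIF2B1, a subunit of the exchange factor eIF2B, rose at 24 h with 100 nM (log2 change 0.41, adjusted p = 0.00118) and 20 nM (0.50, adjusted p = 0.000577), and its values at 16 h were 0.15 and 0.15 without passing. EIF2S1, which encodes the alpha subunit of eIF2, rose with 100 nM at 24 h (log2 change 0.45, adjusted p = 0.00916, lost without library 9 or 12), while 20 nM at 24 h (0.24), 100 nM at 16 h (0.18) and 20 nM at 16 h (0.31) did not pass. EIF2B3, another eIF2B subunit, rose with 100 nM by 0.17 at 24 h and 0.22 at 16 h on the log2 scale (adjusted p = 0.0465 and 0.0231, each call lost without at least 1 library), and had 0.17 and 0.07 with 20 nM without passing.

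EIF2AK1, which encodes the heme-regulated kinase HRI, fell with 20 nM at 24 h (log2 change -0.56, adjusted p = 0.000865, limma) and had -0.18 with 100 nM at 24 h, -0.13 with 100 nM at 16 h and 0.04 with 20 nM at 16 h without passing. PPP1R15B, the constitutive counterpart of PPP1R15A, fell with 100 nM at 16 h (-0.25, adjusted p = 0.00399), and the log2 changes with 100 nM at 24 h (-0.11), 20 nM at 24 h (0.0015) and 20 nM at 16 h (-0.14) did not pass. EIF2AK3, which encodes the kinase PERK, fell at 16 h, with a log2 change of -0.75 with 100 nM and -0.59 with 20 nM (adjusted p = 0.0086 and 0.0303), calls that were lost without library 4 or 6 for 100 nM and without library 1, 2, 5 or 6 for 20 nM. At 24 h its log2 changes were -0.21 with 100 nM and 0.03 with 20 nM, neither called. EIF2AK3 was low, at 2.43 to 6.41 FPKM over the 12 libraries. EIF2AK4, which encodes GCN2, fell at 24 h by 0.27 with 100 nM and by 0.17 with 20 nM on the log2 scale (adjusted p = 0.00184 and 0.0172), the 20 nM call being lost without library 7, 11 or 12, and had -0.02 and -0.05 at 16 h without passing.

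Of 8 leucine zipper partners and related stress factors, 7 were tested. At 24 h, 2 rose and 2 fell with 100 nM (33.8% of all tested genes were called), and 3 rose and 2 fell with 20 nM (28.8%). At 16 h, 1 rose and 1 fell with 100 nM (23.8%) and 2 rose with 20 nM (17.7%). FOSL1, an AP-1 subunit, rose in all 4 comparisons, with log2 changes of 1.00 and 0.61 at 24 h and 0.71 and 0.64 at 16 h for 100 nM and 20 nM (adjusted p = 2.78e-06, 8.09e-05, 1.91e-05 and 6.31e-05, limma). ATF3, a stress factor induced by ATF4, was at 17.1 and 18.9 FPKM with 100 nM, 18.7 and 19.4 FPKM with 20 nM and 10.9 and 9.41 FPKM with solvent at 24 h, and rose with both doses (log2 changes 0.77 and 0.85, adjusted p = 0.0023 and 0.00191). At 16 h the ATF3 log2 change was 0.15 with 100 nM (adjusted p = 0.446) and 0.46 with 20 nM (adjusted p = 0.0399, lost without library 2, 5, 6, 9 or 10). ATF5, a paralog of ATF4, fell at 24 h with both doses (log2 changes -0.15 and -0.40, adjusted p = 0.0253 and 0.000403), the 100 nM call being lost without library 9, 10, 11 or 12, and had 0.11 and 0.07 at 16 h without passing. JDP2, an AP-1 repressor, fell at 24 h with 100 nM (-0.46, adjusted p = 0.0181) and 20 nM (-0.39, adjusted p = 0.0421), calls lost without at least 1 library each, and had -0.18 and -0.27 at 16 h without passing. CREBZF, a leucine zipper protein, fell with 100 nM at 16 h (-0.17, adjusted p = 0.0431) and rose with 20 nM at 24 h (0.20, adjusted p = 0.0216), both calls lost without at least 1 library, and had 0.13 with 100 nM at 24 h and -0.0017 with 20 nM at 16 h without passing. The number called with 100 nM at 24 h was 2 without library 9 and 5 without library 7. JDP2 was low, at 2.63 to 4.69 FPKM over the 12 libraries. NUPR1 did not reach the level for testing, at 0.66 FPKM or below.

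Amino acid transporters moved in both directions. Of 10 transporters 9 were tested. At 24 h, 2 rose and 2 fell with 100 nM (33.8% of all tested genes were called), and 3 rose and 2 fell with 20 nM (28.8%). At 16 h, 3 rose and 4 fell with 100 nM (23.8%) and 1 rose and 3 fell with 20 nM (17.7%). Without library 3 the number called with 100 nM at 16 h was 3, and without library 9 the number called with 100 nM at 24 h was 2. SLC7A5, the large neutral amino acid transporter LAT1, rose in all 4 comparisons (log2 changes 0.42, 0.19, 0.28 and 0.27), although the 20 nM value at 24 h had an adjusted p of 0.898 after rescaling to a common sum. SLC3A2, its heavy chain CD98, rose at 24 h by 0.61 with 100 nM and 0.52 with 20 nM on the log2 scale (adjusted p = 0.000179 and 0.000526, limma). At 16 h the SLC3A2 log2 change was 0.21 with 100 nM (adjusted p = 0.0356, lost after rescaling to a common sum and without any 1 of 10 libraries) and 0.13 with 20 nM (adjusted p = 0.166). SLC1A5, the glutamine transporter ASCT2, rose with 100 nM at 16 h (0.26, adjusted p = 0.0355, lost without at least 1 library), and had 0.22 with 100 nM at 24 h, -0.10 with 20 nM at 24 h and 0.13 with 20 nM at 16 h without passing. SLC7A11, the cystine transporter, fell in all 4 comparisons by 0.29 to 0.36 on the log2 scale, and each of those 4 calls was lost without at least 1 library. SLC6A9, the glycine transporter GLYT1, fell at 24 h with 100 nM (-0.45, adjusted p = 0.00747, lost without library 9) and 20 nM (-0.36, adjusted p = 0.023, lost without library 7, 8, 11 or 12), and had -0.04 and -0.0004 at 16 h. SLC7A11 and SLC6A9 were low, at 2.18 to 4.08 and 1.76 to 2.99 FPKM over the 12 libraries, where log2(FPKM + 1) understates change. SLC7A1, the cationic amino acid transporter CAT1, fell at 16 h with 100 nM (-0.34, adjusted p = 0.00309) and 20 nM (-0.35, adjusted p = 0.00367), and had -0.15 and -0.11 at 24 h without passing. SLC38A2, the neutral amino acid transporter SNAT2, was at 199 and 192 FPKM with 100 nM, 257 and 278 FPKM with 20 nM and 200 and 205 FPKM with solvent at 24 h. By contrast, at 16 h SLC38A2 was at 79.1 and 78.3 FPKM with 100 nM, 118 and 113 FPKM with 20 nM and 201 and 201 FPKM with solvent. The SLC38A2 log2 change was -0.05 with 100 nM (adjusted p = 0.435) and 0.40 with 20 nM (adjusted p = 0.000402) at 24 h, and -1.34 with 100 nM and -0.79 with 20 nM at 16 h (adjusted p = 6.87e-07 and 1.76e-05).

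Among 8 other enzymes of serine, glycine and one-carbon metabolism, 7 were tested. At 24 h, 1 rose and 2 fell with 100 nM (33.8% of all tested genes were called), and 2 fell with 20 nM (28.8%). At 16 h, 1 rose and 1 fell with 100 nM (23.8%) and 1 fell with 20 nM (17.7%). Of these 7, the number called with 100 nM at 24 h was 1 without library 10 and 4 without library 3. MTHFD2, the mitochondrial folate enzyme, was at 148 and 141 FPKM with 100 nM, 171 and 170 FPKM with 20 nM and 203 and 196 FPKM with solvent at 24 h, and at 149 and 146 FPKM with 100 nM, 150 and 155 FPKM with 20 nM and 236 and 194 FPKM with solvent at 16 h. Its log2 change was -0.46 and -0.23 at 24 h and -0.53 and -0.48 at 16 h for 100 nM and 20 nM (adjusted p = 0.00205, 0.0527, 0.00148 and 0.00332, limma). PSPH, the last enzyme of serine synthesis, rose with 100 nM at 16 h (log2 change 0.25, adjusted p = 0.0476, and 0.092 after rescaling to a common sum), where PSAT1 and PHGDH fell; that call was lost without at least 1 library, and the other PSPH values were -0.08 and -0.12 at 24 h and 0.07 with 20 nM at 16 h. SHMT1, the cytosolic serine hydroxymethyltransferase, fell at 24 h with 100 nM (-0.28, adjusted p = 0.0135) and 20 nM (-0.29, adjusted p = 0.0132), and had -0.18 and -0.23 at 16 h without passing. Its mitochondrial counterpart SHMT2 fell with 20 nM at 24 h (-0.19, adjusted p = 0.0337), and had -0.09 with 100 nM at 24 h, -0.09 with 100 nM at 16 h and -0.12 with 20 nM at 16 h without passing. MTHFD1, the cytosolic folate enzyme, rose with 100 nM at 24 h (0.13, adjusted p = 0.0398, and 0.596 after rescaling to a common sum), and had 0.06 with 20 nM at 24 h and -0.02 and -0.05 at 16 h. Each SHMT1, SHMT2 and MTHFD1 call was lost without at least 1 library.

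Of 10 other enzymes of amino acid metabolism, 8 were tested; 1 rose and 1 fell with each dose at 24 h (ALDH18A1 higher and CTH lower, each call lost without at least 1 library), 0 were called with 100 nM at 16 h by limma and 1 fell with 20 nM at 16 h. Over all tested genes, 33.8% and 28.8% were called with 100 nM and 20 nM at 24 h, and 23.8% and 17.7% at 16 h. CTH, the cystathionine gamma-lyase of cysteine synthesis, had log2 changes of -0.33 and -0.30 at 24 h (adjusted p = 0.0289 and 0.0441, limma) and -0.29 and -0.28 at 16 h (adjusted p = 0.0622 and 0.0798). Its level was low, at 2.61 to 3.82 FPKM over the 12 libraries. ALDH18A1, an enzyme of proline synthesis, had 0.16 and 0.17 at 24 h (adjusted p = 0.0217 and 0.0183) and 0.01 and 0.02 at 16 h, and its 20 nM value at 24 h was -0.0179 after rescaling to a common sum. GOT2, the mitochondrial aspartate aminotransferase, was the gene that fell with 20 nM at 16 h (-0.11, adjusted p = 0.0424, lost without at least 1 library), and had -0.06 and -0.0019 at 24 h and -0.10 with 100 nM at 16 h. With 100 nM at 16 h, 4 of these 8 had an unadjusted p under 0.05 (CTH, PYCR1, GOT1 and GOT2). This count has no background, as the share of all tested genes at that looser level is not given here.

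The 20 cytosolic aminoacyl-tRNA synthetases charge tRNA with amino acids, and many are ATF4 targets. At 24 h, 8 rose and 2 fell with 100 nM, where 33.8% of all tested genes were called, 15.4% higher and 18.4% lower. With 20 nM at 24 h, 7 rose and 3 fell, where 28.8% were called, 14.7% higher and 14.1% lower. At 16 h, 2 rose and 3 fell with 100 nM (23.8%) and 1 rose and 3 fell with 20 nM (17.7%). The changes were small, with list medians of 0.07 and 0.08 at 24 h and 0.01 and -0.03 at 16 h. Rescaling to a common sum moved the median of all genes at 20 nM and 24 h by -0.16, more than the size of the list median there. SARS rose at 24 h by 0.27 with 100 nM and 0.29 with 20 nM on the log2 scale (adjusted p = 0.000884 and 0.000789, limma), the 20 nM call being lost after rescaling to a common sum (adjusted p = 0.0697), and had -0.02 and 0.08 at 16 h without passing. WARS rose with 100 nM at 24 h (0.29, adjusted p = 0.00202), and had 0.13 with 20 nM at 24 h and 0.10 and 0.04 at 16 h without passing. YARS rose at 24 h with 100 nM (0.15, adjusted p = 0.0274) and 20 nM (0.28, adjusted p = 0.00181), both lost after rescaling to a common sum, and had 0.03 and -0.04 at 16 h. TARS fell at 16 h with 100 nM (-0.24, adjusted p = 0.00791) and 20 nM (-0.17, adjusted p = 0.0388), calls lost without at least 1 library each, and had 0.06 and 0.10 at 24 h without passing. FARSA rose with 100 nM at 16 h (0.16, adjusted p = 0.0268) and fell with 20 nM at 24 h (-0.13, adjusted p = 0.0496), calls lost without at least 1 library each, and had 0.05 with 100 nM at 24 h and 0.05 with 20 nM at 16 h. QARS fell in all 4 comparisons (log2 changes -0.35, -0.42, -0.26 and -0.20), as did IARS (-0.36, -0.19, -0.22 and -0.30), while KARS rose in all 4 (0.25, 0.24, 0.12 and 0.13); the 16 h calls of these 3 genes and the 20 nM call of IARS at 24 h were lost without at least 1 library, and the 20 nM call of KARS at 24 h after rescaling to a common sum. With 100 nM at 16 h the number of synthetases called was 1 without library 5 and 5 without library 1.

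Paralogs of the members and other outputs of the response were few. Of 8 paralogs 5 were tested. At 24 h, 1 fell with 100 nM (33.8% of all tested genes were called) and 1 with 20 nM (28.8%). At 16 h, 2 fell with 100 nM (23.8%) and 1 with 20 nM (17.7%). TRIB1, the paralog of TRIB3, had 24 h log2 changes of -0.04 with 100 nM and 0.15 with 20 nM (adjusted p = 0.558 and 0.0654, limma). TRIB1 was at 24.4 and 23.3 FPKM with 100 nM, 35.8 and 35.5 FPKM with 20 nM and 55.3 and 56.1 FPKM with solvent at 16 h, a log2 change of -1.19 with 100 nM and -0.63 with 20 nM (adjusted p = 3.37e-06 and 0.000141, limma). TRIB2, the other TRIB3 paralog, fell with 100 nM at 16 h (-0.67, adjusted p = 0.0239, lost without library 3, 5 or 6), and had -0.37 with 100 nM at 24 h, -0.45 with 20 nM at 24 h and -0.51 with 20 nM at 16 h without passing. Of 10 further outputs and mTORC1 restraints only 4 were tested; GDF15, a secreted stress cytokine, fell with 100 nM at 24 h (log2 change -0.56, adjusted p = 0.00965, lost without library 9 or 12) and EIF4EBP1, a translation repressor, fell with 100 nM at 16 h (-0.19, adjusted p = 0.015, lost without library 3, 4 or 6). The other GDF15 log2 changes were -0.29 with 20 nM at 24 h, -0.31 with 100 nM at 16 h and 0.0088 with 20 nM at 16 h, and its solvent level was itself higher at 24 h than at 16 h (log2 difference 0.57, adjusted p = 0.0403). For EIF4EBP1 they were 0.10 and 0.07 at 24 h and -0.12 with 20 nM at 16 h, none called. TRIB2 and GDF15 were low, at 1.6 to 4.98 and 2.93 to 6.74 FPKM over the 12 libraries. FGF21 was at 0.1 FPKM or below in all libraries.

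The ATF6 and XBP1 arm, which answers unfolded protein in the endoplasmic reticulum beside the PERK arm, was represented by 12 genes. At 24 h, 1 rose and 3 fell with 100 nM (33.8% of all tested genes were called), and 1 rose and 5 fell with 20 nM (28.8%). At 16 h, 2 rose with 100 nM (23.8%) and 1 rose with 20 nM (17.7%). The list medians were 0.02 and -0.13 at 24 h and -0.02 and 0.03 at 16 h. PDIA4, a disulfide isomerase, fell at 24 h by 0.25 with 100 nM and by 0.41 with 20 nM on the log2 scale (adjusted p = 0.000885 and 0.000125, limma), and had -0.06 and -0.04 at 16 h without passing. HSPA5, the chaperone BiP, had a log2 change of -0.10 with 100 nM at 24 h (adjusted p = 0.0915) and fell with 20 nM (-0.37, adjusted p = 0.000461), and had 0.04 and 0.001 at 16 h. ATF6 itself fell with 100 nM at 24 h (-0.19, adjusted p = 0.0352, lost without at least 1 library), and had -0.04 with 20 nM at 24 h and -0.14 and -0.06 at 16 h. CRELD2, an endoplasmic reticulum stress gene, rose at 24 h with 100 nM (0.27, adjusted p = 0.00804) and 20 nM (0.19, adjusted p = 0.0433), with an adjusted p of 0.0642 and 0.967 after rescaling to a common sum, and had 0.12 and 0.15 at 16 h without passing. HERPUD1, a component of endoplasmic reticulum-associated degradation, rose at 16 h with 100 nM (0.24, adjusted p = 0.00436) and 20 nM (0.16, adjusted p = 0.033, lost without at least 1 library). At 24 h HERPUD1 fell with 20 nM (-0.21, adjusted p = 0.00696, lost without library 12) and had -0.06 with 100 nM (adjusted p = 0.303). HSP90B1, the chaperone GRP94, rose with 100 nM at 16 h (0.13, adjusted p = 0.0317, lost without at least 1 library), and had 0.08 and 0.05 at 24 h and 0.10 with 20 nM at 16 h without passing. Without library 9, 1 gene of this arm was called with 100 nM at 24 h.

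**Figure D4:**
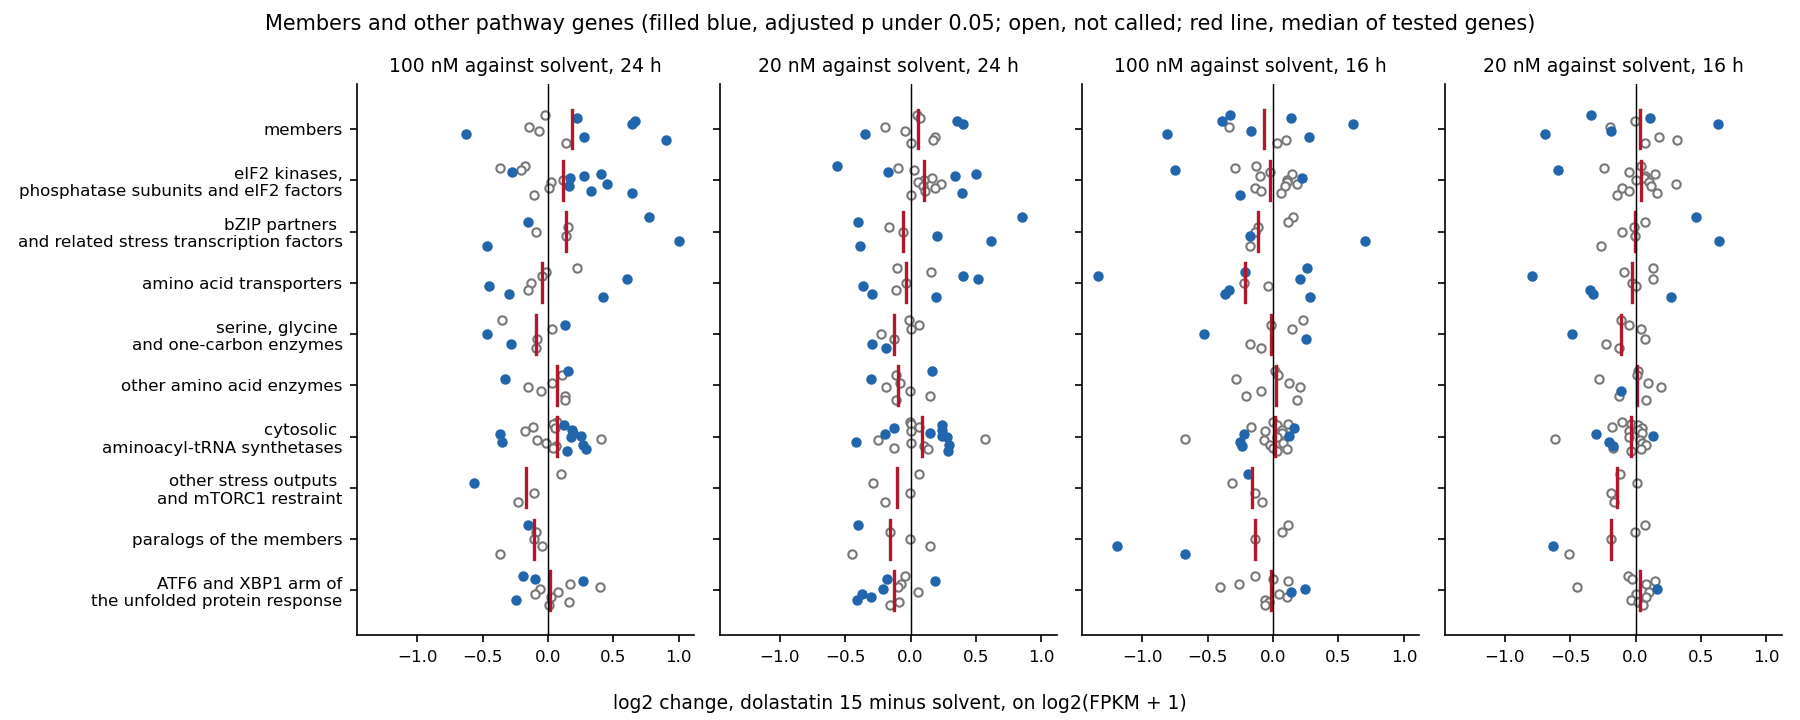
Log2 change for dolastatin 15 minus solvent on the log2(FPKM + 1) scale (x axis) of the members and the tested genes of 9 other lists (y axis), 1 panel for each drug comparison; filled blue points have an adjusted p under 0.05, open points do not and red lines are list medians. In each panel the members hold called genes on both sides of 0, from -0.63 for PSAT1 to 0.90 for STC2 with 100 nM at 24 h.

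The members did not share a single pattern. Across the 12 libraries, Pearson's r on log2(FPKM + 1) was highest for ATF4 with SESN2 (0.84), ATF4 with DDIT3 (0.83), PSAT1 with PHGDH (0.82) and ASNS with PHGDH (0.82), and lowest for DDIT3 with PSAT1 (-0.93). These are descriptions over libraries that fall into 6 groups and share solvent, time and scaling. Among 2444 other protein-coding genes with a range of group means of at least 0.5 on the log2 scale, those most like ATF4 over the 12 libraries were MON1A (r = 0.98), MAP2K3 (0.95) and ZNF593 (0.94). The pattern of DDIT3 was most like JUN (0.95), DUSP1 (0.95) and CNST (0.95), and that of CHAC1 most like IER3 (0.96), IER2 (0.96) and NR1D1 (0.94). PSAT1 was most like BMP4 (0.99), CCDC71 (0.99) and AKT2 (0.99). STC2 was most like MAGOH (0.92), IRS2 (0.91) and PPP1R15A (0.89), and ASNS most like LY6G5B (0.97), RNMT (0.95) and RAB23 (0.95). For SESN2, LAMB3 (0.93) and JUN (0.90) were among the nearest. For PHGDH they included VPS72 (0.95) and NIT1 (0.94). The nearest were, for DDIT4, CCDC189 (0.93), AHDC1 (0.91) and ZNF775 (0.90), and, for TRIB3, ELOF1 (0.85), IRS2 (0.84) and CYSTM1 (0.83).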

How the data were processed

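RNA of 12 HCT116 libraries was measured, 2 in each of 6 groups. The authors deposited FPKM per gene and library, rounded to 2 decimals; RSEM 1.2.28 and GRCh38 are named in the submitters' processing notes, while aligner, annotation release and strand setting were not given in the sources used here. Identifiers were paired with GENCODE 29 symbols (57836 of 58174), and members and groups were matched through symbols and column headers. Genes at or above 1 FPKM in 2 of 12 libraries (13458) were tested with limma 3.58.1 in R 4.3.3 on log2(FPKM + 1), with 6 group means, 9 contrasts, 6 residual degrees of freedom, a mean-dependent prior and Benjamini-Hochberg adjustment at 0.05. The fit was tested on simulated data. Alternatives were other pseudocounts (0.5 and 0.1), filters, scalings, a constant prior, fits of each time separately and dropping each library in turn; a common sum over nuclear genes was added after seeing the data. Read depth is unknown, so no counting error is given. Genes of each list named are the 2 largest called increases and decreases per drug comparison, and a gene so named is followed through the other comparisons; others are named as examples chosen after their values were seen. The members and lists were chosen with earlier results of these data known. For 2 members, 1 of the 3 genes most like them in pattern is not reported here.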

Additional observations from a re-analysis of the deposited data

Results flagged for a closer look

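The results here are genes whose drug effect at 24 h differed from that at 16 h, each against its own solvent libraries, in a test of the difference itself (limma, adjusted p under 0.05); values are differences of log2 change, 24 h minus 16 h. Groups of 2 libraries gave no check for a library that stands apart within its group.

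With 100 nM, where 10.2% of all tested genes were called, the members with a higher log2 change at 24 h were CHAC1 (1.06), STC2 (0.81) and ASNS (0.31). With 20 nM, where 11.5% were called, they were ASNS (0.39) and PSAT1 (0.35). The STC2 and ASNS calls at 100 nM were fragile, as given with the time differences above. Neither 20 nM call held after rescaling to a common sum (adjusted p = 0.0635 for ASNS and 0.105 for PSAT1, limma). CHAC1 at 100 nM was called higher at 24 h and called lower at 16 h, the 16 h call being fragile as given above.

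Among the other pathway genes with 100 nM, the difference was positive for SLC38A2 (1.29), TRIB1 (1.14), PPP1R15A (0.58), SLC3A2 (0.40), CREBZF (0.31), TARS (0.30), FOSL1 (0.30), SARS (0.29) and EIF4EBP1 (0.29). It was negative for HERPUD1 (-0.30), ATF5 (-0.27), EIF2AK4 (-0.25) and PDIA4 (-0.19). For PPP1R15A, SLC3A2 and FOSL1 the solvent level was itself called lower at 24 h than at 16 h (log2 differences -0.43, -0.40 and -0.33, adjusted p = 0.0135, 0.0138 and 0.0126, limma), as it was for STC2 among the members (-0.46, adjusted p = 0.0448), and the difference of drug effects includes that move. In the 100 nM libraries SLC3A2 was at 179 and 178 FPKM at 24 h and 181 and 177 FPKM at 16 h.

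With 20 nM, 11.5% of all tested genes were called. The difference was positive for SLC38A2 (1.19), TRIB1 (0.78), SLC3A2 (0.39), EIF2B1 (0.35), YARS (0.32), TARS (0.27) and SARS (0.21). It was negative for EIF2AK1 (-0.61), ATF5 (-0.47), HERPUD1 (-0.38), HSPA5 (-0.37) and PDIA4 (-0.37). The SLC3A2 value includes the solvent move given above for that gene. Rescaling to a common FPKM sum moved the median of this difference over all genes by -0.17.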

How the results depend on the processing

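No paired analysis was possible because the columns carry a library number and not the sample number of the labels. Of 40 member results in the drug comparisons 21 were called; 12 of these kept their call under every alternative, 9 lost it under at least 1 and 0 changed sign. Of the 19 not called, 6 were called under at least 1 alternative and 7 changed sign. Of 119 called results of other pathway genes 50 were kept and 69 lost under at least 1. An alternative that left a gene out of the test, as the filter at 5 FPKM did for CHAC1 and SESN2, was not counted for that gene. Where no cause is given below, the cause was not tested.

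With a common FPKM sum the median log2 change of all genes moved by -0.16 for 20 nM at 24 h and by -0.17 for the time difference at 20 nM. At 20 nM and 24 h 5 members were then called, all lower (ATF4, TRIB3, DDIT4, PSAT1 and PHGDH). In that comparison ATF4 (-0.12), ASNS (-0.13), TRIB3 (-0.18), STC2 (-0.0066) and ALDH18A1 (-0.018) changed sign, as did TRIB3 with 100 nM at 16 h (-0.0027). All genes called became 1187 between the solvent times and 2462 for the 20 nM time difference. With a common nuclear sum ASNS (-0.017) and TRIB3 (-0.061) changed sign at 20 nM and 24 h. Median-of-ratios scaling gave 0.0018 for ASNS with 100 nM at 24 h and 0.0197 for CHAC1 with 20 nM at 16 h.

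Between doses at 24 h, 657 genes were called, against 334 with no filter, 411 with a constant prior and 9 from that time alone, where 0 members were called; at 16 h 43 were called, against 28 with a constant prior and 10 from that time alone, which uses fewer libraries. Between the solvent times 756 genes and 1 member were called; 326 genes were called with no filter. Members called there were 0 with no filter, a common sum or a constant prior, and 2 at 5 FPKM, with median-of-ratios scaling or a common nuclear sum. The 20 nM time difference had 1550 calls, and 1008 with no filter.

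Leaving out each library gave these ranges. With 100 nM at 24 h, 2757 (without library 9) to 5005 (without 7) of all genes were called. With 20 nM at 24 h there were 2153 (without 11) to 3765 genes and 1 (without 12) to 3 members. With 100 nM at 16 h there were 1781 (without 5) to 3615 genes and 3 (without 3) to 8 members. With 20 nM at 16 h there were 1036 (without 1) to 2774 genes and 3 to 5 members. Between doses there were 42 (without 9) to 1511 (without 7) genes and 0 to 3 members at 24 h, and 15 to 65 genes at 16 h. Between the solvent times there were 23 (without 5) to 1437 (without 8) genes and 0 to 2 members. The time difference had 632 (without 9) to 1787 genes and 1 to 3 members with 100 nM, and 705 (without 1) to 1753 genes with 20 nM. The log2 change ranged from -0.086 to 0.035 for ASNS with 100 nM at 24 h, from -0.043 to 0.054 for TRIB3 with 20 nM at 24 h and from -0.028 to 0.023 for CHAC1 with 20 nM at 16 h. A group left with 1 library is assumed to vary like the other groups.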
